A study of Homo sapiens with 31 samples.

Results

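The subject is the difference between 2 knockout lines in how ribosome occupancy responded to the mTOR inhibitor PP242. Of 31 libraries in the series, 8 measure it: the ribosome profiling libraries of EIF4A1 knockout (KO) and EIF4A2 KO cells. All derive from HEK293 T-REx, a human embryonic kidney line. Each genotype had 2 DMSO libraries, 1 library after 30 min of 1 µM PP242 and 1 after 30 min of 10 µM PP242. Per transcript, the interaction is the PP242 effect in EIF4A1 KO cells minus that in EIF4A2 KO cells, with both doses pooled. A positive (higher) interaction means a weaker fall or a stronger rise in EIF4A1 KO cells. A negative (lower) one means a stronger fall or a weaker rise there. The 4 naive libraries of the same assay (2 DMSO, 1 at each dose) enter none of the interaction tests and serve as an outside reference.

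Ribosome profiling sequences the RNA fragments (footprints) that ribosomes shield from nuclease, so the footprint count of an mRNA follows its occupancy by ribosomes. eIF4A1 and eIF4A2 are closely related DEAD-box RNA helicases of translation initiation. eIF4A1 unwinds structure ahead of the scanning ribosome as part of the cap-binding complex eIF4F, and eIF4A2 has also been linked to mRNA repression with the CCR4-NOT complex. The kinase complex mTORC1 keeps cap-dependent initiation active. When it is inhibited, mRNAs with a 5′ terminal oligopyrimidine (TOP) motif, which encode ribosomal proteins and elongation factors, are repressed most, in part by the RNA-binding protein LARP1. The title of the series places eIF4A1 in that repression.

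The files name transcripts by Ensembl ID, and no table at hand pairs those IDs with genes. Transcripts are therefore described by what was measured on them, 4 are given by ID, and no sequence is shown. For the same reason the loss of EIF4A1 or EIF4A2 could not be checked in the libraries, and the genotypes rest on the labels. Each knockout was 1 line, and whether it came from 1 clone is not given in the sources used here. The 8 libraries held 7467192 to 18924586 counts over distinct transcripts. The 2 EIF4A1 KO DMSO libraries were the shallowest, with 8166555 and 7467192 counts. The DMSO replicates of each knockout differed by more than counting noise (chi-square per degree of freedom of 1.32 in EIF4A1 KO and 1.71 in EIF4A2 KO, over transcripts with at least 50 counts in the pair). They were counted as separate samples. The labels do not say whether they came from separate cultures, so p-values measure only the spread between these libraries, and for PP242 that spread is between the 2 doses. All levels are relative to the other transcripts of a library. No RNA library with PP242 was analysed here, so less translation and less mRNA cannot be told apart.

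Many transcripts responded differently in the 2 knockouts. After rows with equal counts in all files were collapsed, 54096 distinct transcripts were tested with edgeR's quasi-likelihood test. Of these, 2386 (4.41%) were called higher and 1482 (2.74%) lower at an adjusted p under 0.05. At an unadjusted p under 0.05 there were 6021 higher and 4883 lower. Transcripts of a gene share reads, so the calls were also read over 19846 tested loci, each represented by its most counted transcript. There, 798 loci (4.02%) were called higher and 522 (2.63%) lower. Loci were formed from the correlation of neighbouring rows, so transcripts of 1 gene can remain in separate loci. Counts of loci are therefore not counts of genes. The median interaction over all tested loci was 0.02 on the log2 scale. It was 0.69 among the loci called higher, of which 204 exceeded 1, and -0.50 among those called lower, of which 36 went beyond -1. The counts rest on how dose and test were set: the 10 µM libraries alone gave 1171 higher and 537 lower, DESeq2 gave 1321 and 736, and a linear trend over doses scored 0, 1 and 2 gave 1 and 0. With the trend over the length listed for each transcript taken out of each library, the split was 2004 higher to 732 lower. Without EIF4A1 KO DMSO replicate 1 the counts over distinct transcripts were 1454 higher and 556 lower. The lower count was 647 without EIF4A2 KO DMSO replicate 1, 926 without EIF4A1 KO DMSO replicate 2, 873 without the EIF4A1 KO 1 µM library and 832 without the EIF4A2 KO 1 µM library.

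The called loci were chosen on both doses together, so their values at each dose are a description. All 798 loci called higher and all 522 called lower had the same sign at 1 µM and at 10 µM. The interaction was larger in size at 1 µM than at 10 µM for 594 of the 798 and 367 of the 522. By median it was 0.78 (1 µM) and 0.63 (10 µM) among loci called higher, and -0.56 and -0.45 among loci called lower. In 793 of the 798 loci, each of the 4 PP242 to DMSO differences in EIF4A1 KO cells lay above each of the 4 in EIF4A2 KO cells, and in 520 of the 522 each lay below. The calls rest on these same libraries, so neither count is further support for them. These differences are on the log2(CPM + 0.5) scale, where CPM is the usual depth-scaled count of a library.

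The loci called higher were mostly transcripts that PP242 lowered in EIF4A2 KO cells. PP242 lowered 1498 of all tested loci (7.55%) and raised 1033 (5.21%) in EIF4A2 KO cells, against 742 (3.74%) and 515 (2.59%) in EIF4A1 KO cells. Over distinct transcripts these were 4702 lowered and 3099 raised in EIF4A2 KO cells, and 2301 and 1497 in EIF4A1 KO cells. Which knockout had more raised transcripts turned over when some EIF4A2 KO libraries were left out. Without its DMSO replicate 1, 1221 were raised in EIF4A2 KO against 1419 in EIF4A1 KO cells. Without its DMSO replicate 2 they were 1391 against 1411, and without its 1 µM library 1511 against 1537. More were lowered in EIF4A2 KO cells in each of the 22 alternatives. With the length trend removed they were 3514 and 4673, and 1503 and 2661, so which direction held more calls turned over in both knockouts. Of the 798 loci called higher, 545 fell in EIF4A2 KO cells. Of these 545, 148 also fell in EIF4A1 KO cells, 353 passed the test in neither direction there and 44 rose. A further 165 of the 798 rose in EIF4A1 KO cells with no call in EIF4A2 KO cells. The median PP242 effect over the 798 loci was -0.51 in EIF4A2 KO cells and 0.22 in EIF4A1 KO cells.

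The loci called lower were the mirror image at a smaller scale. Of 522, 316 rose in EIF4A2 KO cells, and 36 of those fell in EIF4A1 KO cells. A further 102 fell in EIF4A1 KO cells with no call in EIF4A2 KO cells. None of the 522 rose in EIF4A1 KO cells by edgeR's test. The median effect was 0.30 in EIF4A2 KO cells and -0.23 in EIF4A1 KO cells.

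**Figure D1:**
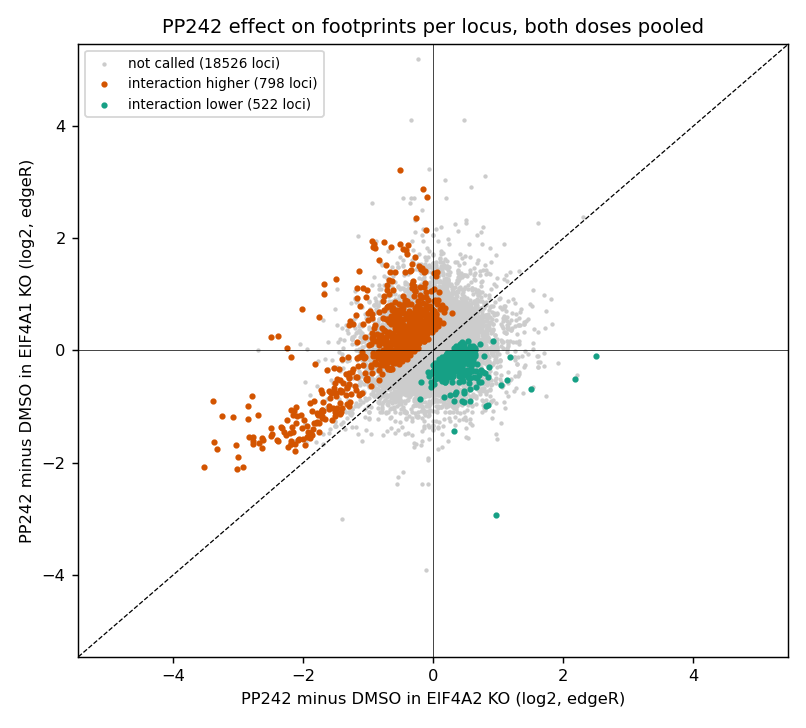
PP242 effect on footprints (log2, both doses pooled) of each tested locus in EIF4A2 KO cells (x axis) and EIF4A1 KO cells (y axis), with the line of equal effects dashed. The 798 loci called higher lie above the line, many with a fall in EIF4A2 KO cells that is smaller or missing in EIF4A1 KO cells, and the 522 called lower lie below it, mostly to the right of 0.

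The response of naive cells lay nearer to that of EIF4A2 KO cells. The naive libraries had no part in choosing the called loci. Of 795 loci called higher with a naive value, the naive PP242 effect was nearer to that of EIF4A2 KO than to that of EIF4A1 KO cells in 693. For the loci called lower it was 465 of 521. The naive effect had a median of -0.39 over the loci called higher, of which 727 were below 0, and of 0.22 over the loci called lower, of which 470 were above 0. Over all 18647 loci with a naive value the median was 0.00.

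The same was seen when loci were chosen in naive cells alone. PP242 lowered 1239 of 18647 loci there (6.64%) and raised 706 (3.79%), in a fit of the 4 naive libraries. Of the 1239 that fell, 453 were called higher in the interaction and 1 lower. Of the 706 that rose, 177 were called lower and 5 higher. The median interaction was 0.39 for the former and -0.28 for the latter. With the length trend removed these were 0.37 and -0.14, and per step of the dose score 0.18 and -0.14. The shares called, 36.6% and 25.1%, stand beside 4.02% and 2.63% over all tested loci. Most tested loci had few counts: the median was 4.3 CPM over all, against 20.5 for the loci that fell and 24.3 for those that rose. Of the 3518 tested loci with a mean of at least 20 CPM over the 8 libraries, 437 were called higher and 372 lower, larger shares than over all loci. The 177 became 84 without EIF4A1 KO DMSO replicate 1, 110 without EIF4A2 KO DMSO replicate 1, 93 with the 10 µM libraries alone and 49 with the length trend removed.

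Across the range of naive responses, EIF4A2 KO cells tracked naive cells and EIF4A1 KO cells stayed near 0 except at the strongest falls. For this, 3518 loci with a mean of at least 20 CPM over the 8 libraries were ordered by their naive effect and split into 10 bins of equal size. In bin 1, with a naive median of -0.75, the median effect in EIF4A2 KO cells was -0.88 (1 µM) and -0.79 (10 µM). In EIF4A1 KO cells it was -0.47 and -0.52. In bin 2, with a naive median of -0.30, EIF4A2 KO cells stood at -0.35 and -0.31 and EIF4A1 KO cells at -0.06 and -0.11. From bin 3 to bin 10 the naive median went from -0.17 to 0.34, and that of EIF4A2 KO cells from -0.19 to 0.32 at 1 µM. Over the same bins the medians in EIF4A1 KO cells at either dose lay between -0.08 and 0.03. The share of loci called higher was 60.5% in bin 1 and 31% in bin 2, and the share called lower was 37.2% in bin 10. Across these 3518 loci the naive effect had a Spearman rho of 0.86 with the effect in EIF4A2 KO cells and 0.25 with that in EIF4A1 KO cells (Pearson r 0.95 and 0.69). Over all 18647 loci with a naive value, rho was 0.44 and 0.06 (Pearson r 0.52 and 0.14). No libraries are shared between the genotypes, and loci are not independent replicates.

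**Figure D2:**
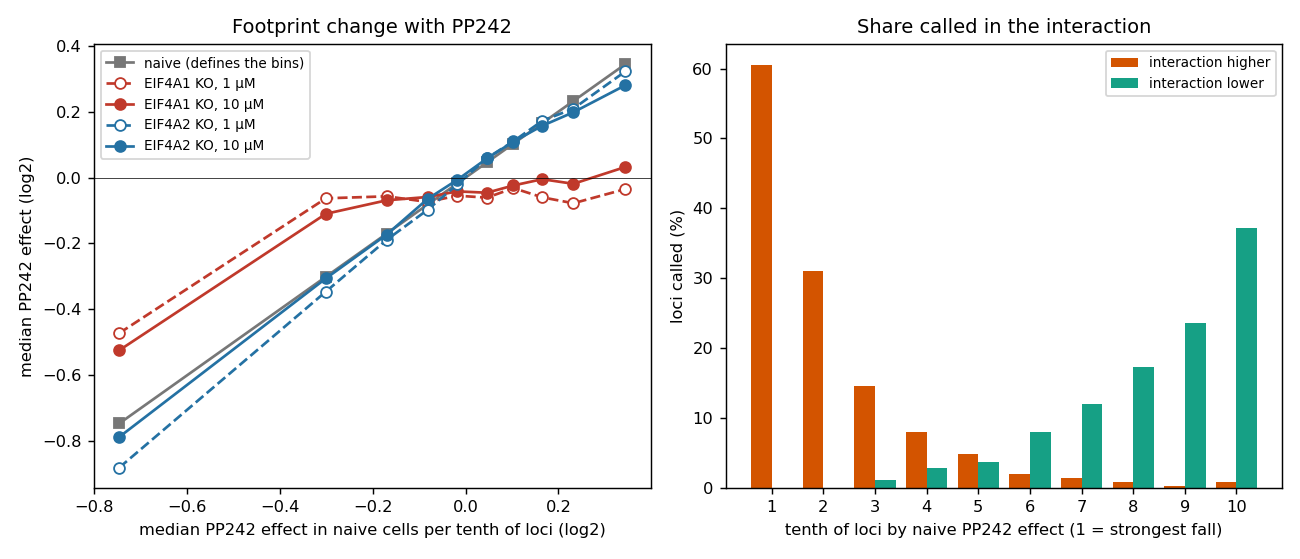
Left, median PP242 effect (log2) in 10 equal bins of 3518 loci, ordered by the naive PP242 effect on the x axis, for naive cells, EIF4A1 KO cells and EIF4A2 KO cells at 1 and 10 µM. Right, the percentage of loci in each bin that were called higher or lower in the interaction. EIF4A2 KO points follow the naive line, EIF4A1 KO points are flat outside bin 1, and calls rise from the middle bins to both ends, to 60.5% higher in bin 1 and 37.2% lower in bin 10.

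The strongest naive falls kept more of their size in EIF4A1 KO cells than mild falls did, by their medians. Of the 1239 loci that fell in naive cells, 283 fell by more than 1 log2 unit, a boundary chosen after the values were seen. The median of these 283 was -1.38 in EIF4A2 KO and -0.80 in EIF4A1 KO cells, which is 57.8% of the former on the log2 scale. Of them, 205 fell in EIF4A2 KO and 162 in EIF4A1 KO cells. The other 956 had a median of -0.42 in EIF4A2 KO and -0.08 in EIF4A1 KO cells, 19.9% of the former. Of these, 636 fell in EIF4A2 KO cells, and 194 fell and 60 rose in EIF4A1 KO cells. For the 706 loci that rose in naive cells, the median was 0.29 in EIF4A2 KO and 0.02 in EIF4A1 KO cells, and 355 and 35 of them rose. In log2 units the knockouts differed more at the strongest falls: the median interaction was 0.65 for the 283 and 0.35 for the 956. Of the 283, 149 were called higher, and of the 956, 304. Whether the interaction itself differs between these groups of loci was not tested.

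An interaction can arise because the knockouts differed before PP242, after it, or both. The knockouts differed at 4413 tested loci (22.2%) in DMSO and at 4201 (21.2%) with PP242. The DMSO libraries of EIF4A2 KO cells are titled in other words than those of EIF4A1 KO and naive cells. The labels do not say whether the libraries of the knockouts were made together. Within 1 state, genotype and a possible batch thus cannot be told apart. A batch that changed the PP242 effect itself could not be told apart from genotype in the interaction either. Of the 798 loci called higher, 351 differed between the knockouts in DMSO but not with PP242, 231 with PP242 but not in DMSO, 187 in both states and 29 in neither by this test. Of the 522 called lower, the counts were 248, 164, 83 and 27 in the same order. The state in which a test is passed depends on depth as well as on size, so these classes are descriptions. Among loci called higher, the larger of the single-state classes changed without EIF4A1 KO DMSO replicate 1 (167 in DMSO only, 195 with PP242 only) and without EIF4A2 KO DMSO replicate 1 (188 and 207). It was 265 and 143 without the EIF4A1 KO 1 µM library, 271 and 153 without the EIF4A2 KO 1 µM library, 150 and 143 with DESeq2, and 197 and 103 with the 10 µM libraries alone. The same lower classes held 89 and 66 loci without EIF4A1 KO DMSO replicate 1, 150 and 99 without its replicate 2, 114 and 73 without EIF4A2 KO DMSO replicate 1, and 164 and 124 without its replicate 2. They held 185 and 82 without the EIF4A1 KO 1 µM library and 164 and 75 without the EIF4A2 KO 1 µM library. With DESeq2 they held 143 and 69, with the 10 µM libraries alone 127 and 49, with the length trend removed 95 and 66, with thinned libraries 195 and 107, and with the replicate block 204 and 106.

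In the 351 loci that differed in DMSO only, the level of untreated EIF4A1 KO cells lay further from that of naive cells than the level of untreated EIF4A2 KO cells did. Their median log2 level against the mean of the naive DMSO libraries was -0.67 and -0.59 in the EIF4A1 KO DMSO libraries, and 0.07 and -0.04 in those of EIF4A2 KO. At 1 µM PP242 it was -0.20 in EIF4A1 KO, -0.37 in EIF4A2 KO and -0.28 in naive cells. At 10 µM the values were -0.33, -0.34 and -0.25. That the knockouts differ in DMSO and not with PP242 is how the class was chosen. The naive levels had no part in that choice. Over all 19376 loci measured in DMSO, EIF4A1 KO cells also differed more from naive cells. The quartiles of the log2 difference were -0.33 and 0.28, against -0.20 and 0.17 for EIF4A2 KO cells. By edgeR's test 2146 loci were higher and 2412 lower, against 696 and 915. The median RNA change of the 351 loci in untreated EIF4A1 KO against naive cells was -0.15.

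The 231 loci that differed with PP242 only were chosen for close DMSO levels and separate PP242 levels of the knockouts, so those levels are given as a description. By edgeR's test 190 fell in EIF4A2 KO cells, and 91 fell and 35 rose in EIF4A1 KO cells. The DMSO medians were -0.22 and -0.23 in EIF4A1 KO and -0.14 and -0.18 in EIF4A2 KO cells. In EIF4A1 KO cells, 1 µM PP242 gave -0.19 and 10 µM gave -0.32. The EIF4A2 KO medians were -0.84 and -0.81. Naive cells stood at -0.67 and -0.52. Of the 149 loci that fell by more than 1 log2 unit in naive cells and were called higher, 88 belonged to this class, 18 differed in DMSO only and 43 in both states. RNA of the 231 loci in EIF4A1 KO against naive cells had a median change of -0.004.

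The classes of loci called lower were chosen in the same way. The 248 that differed in DMSO only stood at 0.47 and 0.45 in the EIF4A1 KO DMSO libraries and at -0.018 and 0.002 in those of EIF4A2 KO. With PP242 they stood at 0.18 and 0.26 in EIF4A1 KO, 0.31 and 0.27 in EIF4A2 KO and 0.23 and 0.25 in naive cells, at 1 and 10 µM. The level of untreated EIF4A1 KO cells thus lay above that reached by naive cells with the drug. The 164 that differed with PP242 only went from 0.18 and 0.15 in DMSO to -0.09 and -0.02 in EIF4A1 KO cells, and from 0.04 and 0.08 to 0.33 and 0.33 in EIF4A2 KO cells.

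**Figure D3:**
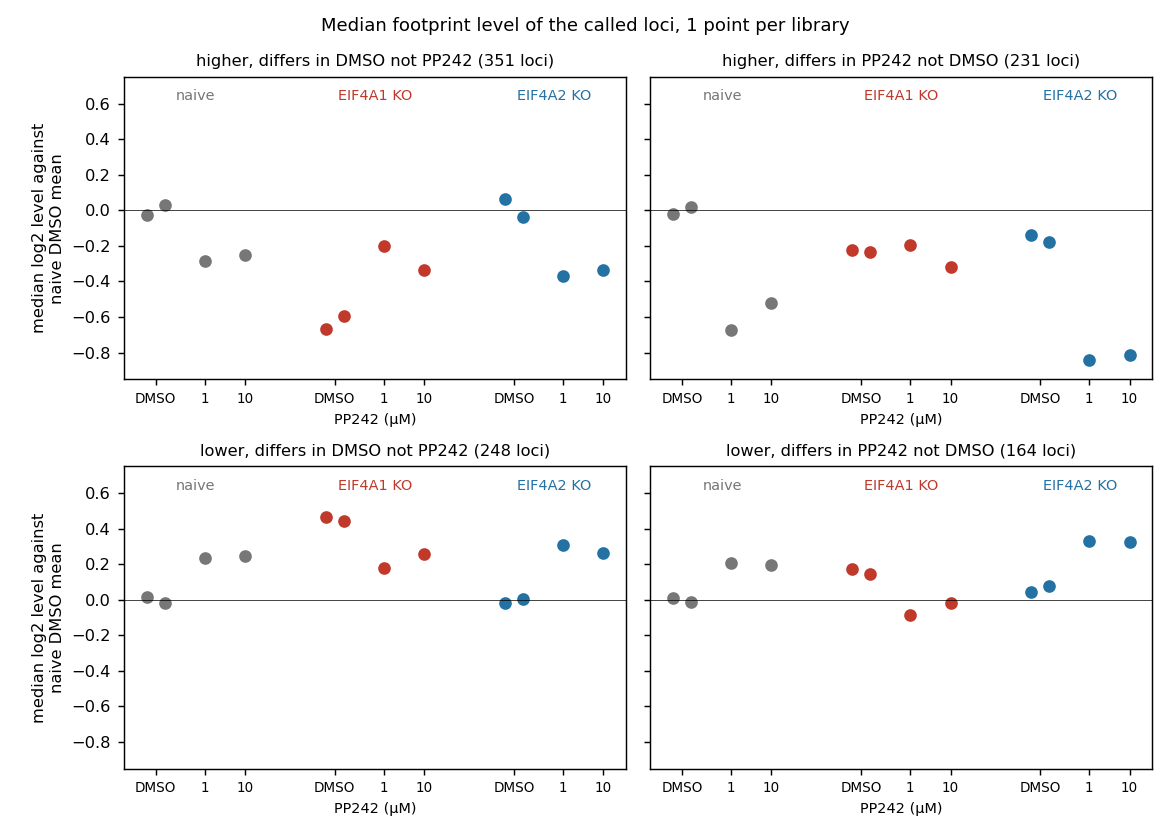
Median footprint level (log2 against the mean of the naive DMSO libraries) of 4 classes of called loci, with 1 point per library for naive, EIF4A1 KO and EIF4A2 KO cells in DMSO and at 1 and 10 µM PP242. The gaps between the knockouts follow from how the classes were chosen. The naive points, which had no part in the choice, show that in the class higher in DMSO only the EIF4A1 KO DMSO points, at -0.67 and -0.59, lie further from the naive DMSO level than the EIF4A2 KO points, at 0.07 and -0.04. Over all tested loci, EIF4A1 KO DMSO footprints also spread further from naive cells than those of EIF4A2 KO.

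Of the transcripts called higher, ENST00000281589.4 had the largest interaction among loci with a mean of at least 20 CPM. It stood at 50.2 and 48.0 CPM in the EIF4A1 KO DMSO libraries, 21.1 at 1 µM and 22.4 at 10 µM PP242. In EIF4A2 KO cells it stood at 53.0 and 53.5 CPM in DMSO, 6.27 at 1 µM and 4.95 at 10 µM. The DMSO levels lay close together and the PP242 levels of the knockouts did not overlap. The interaction was 2.09 (SE 0.15, edgeR adjusted p 1.66e-15). In naive cells it went from 53.6 and 50.6 CPM to 9.46 and 12.2, between the knockouts.

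ENST00000497849.1, with a short listed length (99), did not pass the test for a PP242 effect in EIF4A1 KO cells. Its levels there were 32.2 and 30.1 CPM in DMSO, 29.6 at 1 µM and 27.9 at 10 µM, an effect of -0.12 (SE 0.11, edgeR adjusted p 0.578). In EIF4A2 KO cells it went from 61.6 and 50.3 CPM to 10.9 and 13.3, and in naive cells from 49.9 and 58.4 to 13.3 and 18.2. All EIF4A1 KO libraries lay between the DMSO and the PP242 levels of the other genotypes. The interaction was 2.08 (SE 0.15, edgeR adjusted p 4.97e-16). The RNA of this transcript was higher in EIF4A1 KO than in naive cells (log2 change 0.43, edgeR adjusted p 4.43e-11), while its DMSO footprints were lower than in EIF4A2 KO cells (log2 difference -0.84, edgeR adjusted p 1.4e-09).

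ENST00000325680.12 and ENST00000399668.6 had the most negative interactions under the same conditions, and both have long listed lengths (2137 and 2307). ENST00000325680.12 stood at 14.3 and 12.5 CPM in EIF4A2 KO DMSO libraries and rose to 28.7 at 1 µM and 32.1 at 10 µM. The EIF4A1 KO libraries held 33.3 and 29.1 CPM in DMSO, 27.5 at 1 µM and 29.5 at 10 µM. Untreated EIF4A1 KO cells thus lay at the level that PP242 brought about in EIF4A2 KO cells. The interaction was -1.31 (SE 0.15, edgeR adjusted p 1.9e-09), the DMSO difference between the knockouts 1.22 (edgeR adjusted p 1.53e-12) and the PP242 difference -0.09 (edgeR adjusted p 0.557).

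ENST00000399668.6 went from 21 and 22.8 CPM in DMSO to 32.3 and 33.4 in EIF4A2 KO cells. In EIF4A1 KO cells it went from 39.1 and 36.9 to 32.3 and 33.9. The PP242 levels of the knockouts overlapped and the DMSO levels did not. The interaction was -0.78 (SE 0.13, edgeR adjusted p 2.69e-05). Whether near-identical copies of these 4 transcripts share reads was not tested, since the files hold no sequences.

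**Figure D4:**
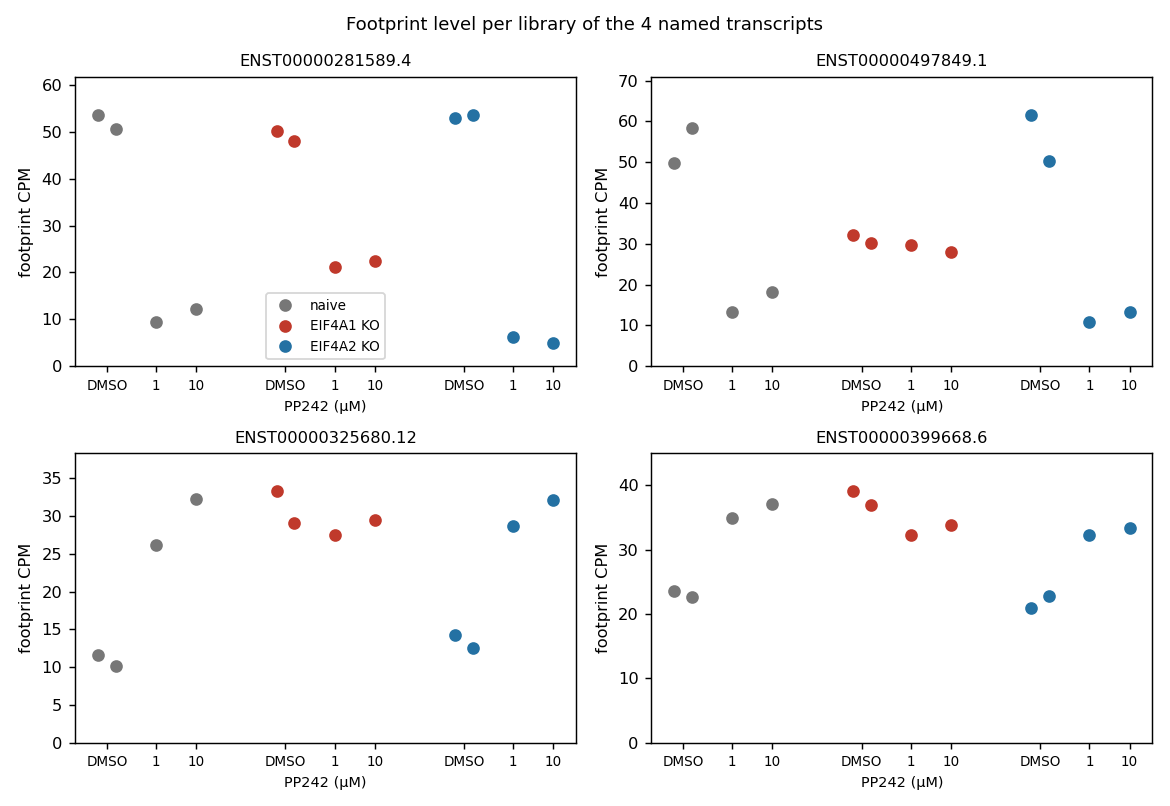
Footprint level (CPM, linear axes from 0) of the 4 transcripts given by ID in each of the 12 ribosome profiling libraries, as 1 point per library. In the upper panels EIF4A2 KO and naive points drop with PP242 further than EIF4A1 KO points, and in the lower panels EIF4A1 KO DMSO points already lie near the PP242 level of the other genotypes.

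The called loci differed in length. The length listed in the files has no stated unit and was used only for order. Its median was 201 for loci called higher and 895 for loci called lower, against 247 over all tested loci. Most tested loci had few counts, with a median of 4.3 CPM, against 23.8 for loci called higher and 37.4 for loci called lower. Among loci with a mean of at least 20 CPM, the middle of 5 bins by length had a median of 447. In 5 equal bins of the 3518 loci by length, the median interaction went from 0.18 in the shortest bin to -0.27 in the longest, and the share called went from 28.8% higher and 1.4% lower to 2.1% higher and 30.4% lower. EIF4A2 KO cells went from -0.24 to 0.19 at 1 µM between the end bins, and naive cells from -0.14 to 0.15. EIF4A1 KO cells stood at -0.06 and -0.11 in the same bins. With all 8 libraries thinned to the smallest, 1892 transcripts were called higher and 1025 lower. With the trend over length taken out of each library, an alternative added after the data were seen, 2004 were called higher and 732 lower.

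Most of the loci called higher were captured more with eIF4A1 than with eIF4A2. In the pulldown experiment, a factor with a streptavidin-binding peptide (SBP) was expressed and captured, and the RNA bound to it was compared with input, in 8 other libraries. Of 791 loci called higher and measured there, 473 were more enriched with SBP-eIF4A1 than with SBP-eIF4A2 and 13 less. Over all measured loci the shares were 14.1% and 7.23%. The median difference of the enrichments was 0.48, against 0.06 over all loci. Among loci with a mean of at least 20 CPM, the middle of 5 bins by this difference had a median of 0.21. Loci that fell in naive cells had a like preference: 671 of 1225 were more and 31 less enriched with SBP-eIF4A1. Their median difference was 0.46, so the preference was not particular to the loci called higher. Loci called lower were split: 73 of 519 were more and 83 less enriched with SBP-eIF4A1, with a median difference of -0.02. They were poorly captured by both proteins, the median log2 enrichment being -1.01 for SBP-eIF4A1 and -0.99 for SBP-eIF4A2. With SBP-eIF4A1, 444 of 519 were depleted, against 33.8% of all loci, and with SBP-eIF4A2 435 of 519, against 37.9%. The loci called higher had medians of 0.512 and -0.002 with the 2 proteins. Of them, 498 were enriched with SBP-eIF4A1, against 30.6% of all loci, and 305 with SBP-eIF4A2, against 29.2%. Length moved with capture: in 5 bins by the difference of the enrichments, the median length fell from 929.5 to 204, and the median interaction went from -0.19 to 0.18. The part of length in this relation was not tested. The SBP-eIF4A2 libraries are titled in other words than the SBP-eIF4A1 libraries. Tagged protein and a possible batch thus cannot be told apart there. No pulldown from cells without a tagged protein was used here, so RNA that binds the beads alone cannot be told apart from RNA bound to the tagged protein.

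**Figure D5:**
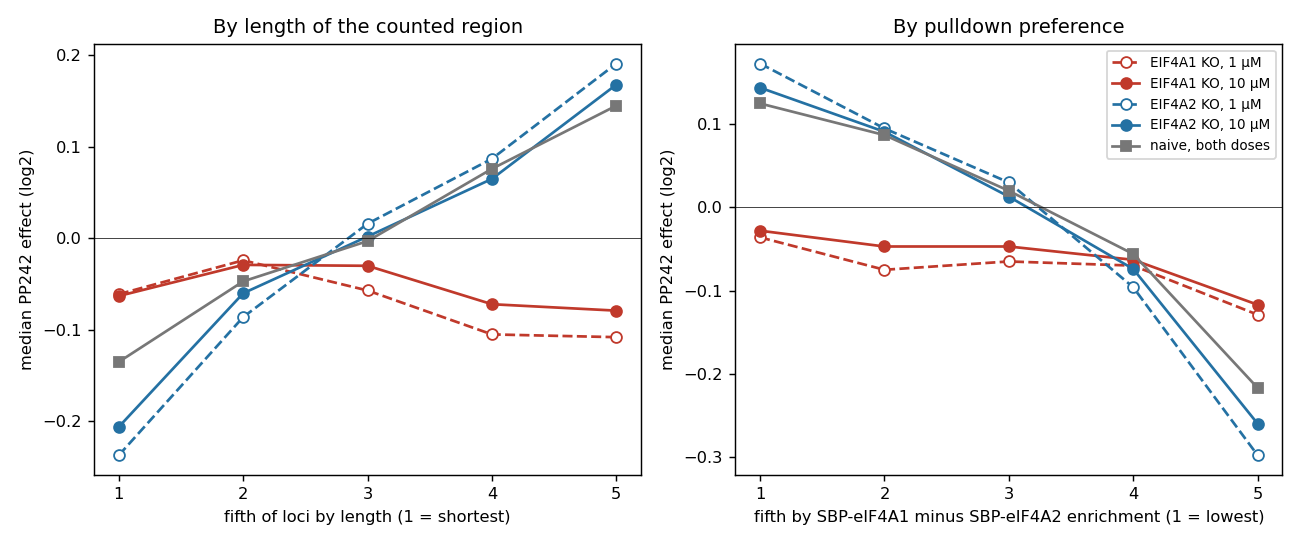
Median PP242 effect (log2) in 5 equal bins of loci, for naive cells with both doses pooled and for each knockout at 1 and 10 µM. Left, 3518 loci binned by listed length. The panel title calls it the length of the counted region, which the files do not state. Right, the 3516 loci with a pulldown value, binned by the SBP-eIF4A1 minus SBP-eIF4A2 enrichment. EIF4A2 KO and naive lines slope across the bins, from -0.24 to 0.19 over length in EIF4A2 KO cells at 1 µM, and EIF4A1 KO points stay between -0.13 and -0.02.

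RNA levels without PP242 had no part in the choice of the called loci. RNA of EIF4A1 KO against naive cells had a median change of -0.08 for loci called higher. Of 790 of these, 320 were lower and 155 higher by edgeR's test. Over all 19610 loci measured, 3922 were lower and 4353 higher, 42.2% in either direction, so lower RNA was more frequent among loci called higher. For loci called lower the median was 0.05, with 180 of 520 higher and 120 lower. The DMSO footprints of the same loci in EIF4A1 KO against naive cells, which include libraries of the interaction, had medians of -0.48 and 0.35. The interaction subtracts the EIF4A1 KO DMSO footprints, so these medians are partly set by how the loci were chosen. Their size therefore cannot be weighed against that of the RNA changes. RNA of EIF4A2 KO cells was not analysed here. After LARP1 siRNA, input RNA of SBP-eIF4A1 cells changed by a median of -0.12 for loci called higher and -0.03 for loci called lower, against 0.03 over all loci. By edgeR's test 10 of the former were lower and 1 higher, where 0.0778% and 0.0623% of all loci were. Loci that fell in naive cells had both shifts too. Their RNA in EIF4A1 KO against naive cells changed by a median of -0.10, with 517 of 1218 lower and 223 higher. Their input RNA after LARP1 siRNA changed by a median of -0.19, with 12 of 1211 lower and 5 higher. Neither shift was thus particular to the loci called higher.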

How the data were processed

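Footprints were analysed in the 8 ribosome profiling libraries of the EIF4A1 and EIF4A2 knockouts, beside 4 naive libraries and the RNA-seq, pulldown and input libraries as outside readouts. The authors deposited 1 file per library with raw counts per Ensembl transcript, and a length as another measure, with no header. Per the submitters' processing notes, CASAVA 1.8, STAR 2.7.0a and build hg38 were used. The counting tool and annotation are not given in the sources used here. Of 94734 transcripts with a count, 77343 distinct count vectors were kept. Loci were formed by taking transcripts in order of total count and dropping those whose log2 CPM (pseudocount 0.5) correlated at 0.9 or more with one already taken within 10 rows, which is approximate and left 34313.

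Tests used edgeR 4.0.16 in R 4.3.3 (TMM, filterByExpr with a minimum count of 10 and minimum total of 15, glmQLFit, glmQLFTest, two-sided), with 4 means (genotype by DMSO or PP242) and Benjamini-Hochberg adjustment over all distinct transcripts. SE is the log2 change over the square root of F. Naive, RNA, LARP1 siRNA and pulldown effects came from separate fits. The 4 transcripts are the 2 with the largest positive and the 2 with the largest negative interaction among called loci of at least 20 CPM with 1 sign at both doses. DESeq2 1.42.0, other filters, scalings, dose codings and row choices, and left-out libraries were alternatives. The code was tested on simulated data. Members, groups and lists were chosen with earlier results of these data known. Gene lists could not be applied, since no transcript was matched to a gene.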

Additional observations from a re-analysis of the deposited data

Results flagged for a closer look

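The difference between the knockouts passed its own test for 2386 transcripts called higher and 1482 called lower. Each of the 4 transcripts given by ID differed between the knockouts in the same test, with a log2 interaction of 2.09 for ENST00000281589.4, 2.08 for ENST00000497849.1, -1.31 for ENST00000325680.12 and -0.78 for ENST00000399668.6. No group had the 4 libraries that a check for an outlying library needs.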

How the results depend on the processing

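Of 22 alternatives, 8 of them left-out libraries, none turned the sign of a reported interaction. The interaction counts of 2386 higher and 1482 lower became 1321 and 736 with DESeq2, 1171 and 537 at 10 µM alone, and 1 and 0 with a slope over a dose score of 0, 1 and 2 (2680 and 2019 at an unadjusted p under 0.05). With the length trend removed, the lower count was 732. With 1 transcript per locus, where fewer rows are tested, they were 763 and 506. The EIF4A1 KO counts of 1497 raised and 2301 lowered became 578 raised with DESeq2, 799 raised at 10 µM, 20 and 464 with the slope, 2661 and 1503 with the length trend removed, and 470 and 739 per locus. The EIF4A2 KO counts of 3099 and 4702 became 1241 and 3006 with DESeq2, 1754 raised at 10 µM, 127 and 1402 with the slope, 1851 raised after thinning, 4673 raised with the length trend removed, and 941 and 1454 per locus. Naive-falling loci called higher (453) were 247 at 10 µM and 1 with the slope. Naive-rising loci called lower (177) were 93 at 10 µM, 0 with the slope and 49 with the length trend removed. Apart from the construction of the per-locus setting, the cause was not tested. Leaving out 1 library gave 1454 to 2666 higher and 556 to 1542 lower interactions, 397 to 1552 raised and 1267 to 2369 lowered in EIF4A1 KO cells (397 and 1267 without EIF4A1 KO DMSO replicate 1), 1221 to 3358 raised and 3245 to 4959 lowered in EIF4A2 KO cells (1221 without EIF4A2 KO DMSO replicate 1), 317 to 475 naive-falling loci called higher and 84 to 180 naive-rising loci called lower. The 4 transcripts given by ID passed the threshold in 21 of 22 alternatives each. With the slope their edgeR adjusted p was 0.338 to 0.436. Only the DMSO libraries carry replicate numbers. A replicate block on them, with a common dose term, gave 2056 higher and 1085 lower interactions. Each main count stayed within a factor of 1.5. The 164 loci called lower that differed with PP242 only became 106. Scaling by mitochondrial transcripts, 1 transcript per gene and the gene lists were not run, since no transcript was paired with a gene.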
